A study of Mus musculus with 6 samples.

Results

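Among the genes counted by RNA sequencing in R848-stimulated mouse macrophages, 9 encode parts of the machinery by which cells answer interferons and related cytokines. They are the 4 chains of the type I and type II interferon receptors (Ifnar1, Ifnar2, Ifngr1 and Ifngr2), the receptor kinase Jak2, the transcription factors Stat2, Stat3 and Stat4, and the feedback inhibitor Socs1. They were chosen by name, as 9 of the 34745 genes in the deposited table, and all 9 were among the 13815 genes with enough counts to be tested. The cells were wild-type bone marrow-derived macrophages, a primary culture obtained by growing bone marrow cells with recombinant M-CSF at 20 ng/ml. In 3 libraries the cells had been pretreated with a KAT8 inhibitor and in 3 with DMSO, a solvent, and all 6 came from cells stimulated for 6 h with R848 at 100 ng/ml. R848 (resiquimod) is an agonist of the endosomal receptor TLR7, and KAT8 (MOF) is an acetyltransferase that acts on histone H4. Every group therefore carries the stimulus, and the labels used here give neither the compound, its dose and length of pretreatment nor the strain, sex or age of the mice.

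Type I interferons bind a receptor made of IFNAR1 and IFNAR2, and interferon-gamma binds a receptor made of IFNGR1 and IFNGR2. JAK kinases held by the receptor chains then phosphorylate STAT proteins. STAT2 and IRF9 are subunits of ISGF3, which binds the interferon-stimulated response element (ISRE), whereas STAT dimers such as that of STAT3 bind the gamma-activated site (GAS). In macrophages, toll-like receptor stimulation commonly leads to interferon release, so that these cells respond to their own interferon, and SOCS1 is induced in turn and limits JAK activity.

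The promoters of 5 of the genes are shown because they hold letters that match the motif of ISGF3, of STAT dimers or of NF-kB, a factor that TLR7 activates. Each sequence runs 5′ to 3′ on the strand of the gene, from 250 bases before to 50 bases after the RefSeq start, on mouse build GRCm38.p6. All 9 genes matched an entry, and Stat4 has entries for 2 starts, which gave 10 promoters. Capitals mark ISRE core matches (GAAA, any 2 bases, GAAA, searched on both strands) in the first 3, the GAS match (TTCNNNGAA, both strands) in Ifnar1 and overlapping NF-kB matches (GGGA, any 4 bases, CC, both strands) in Ifngr2. The Stat2 sequence is chr10:128270248-128270547 on the plus strand, that of Socs1 is chr16:10785487-10785786 on the minus strand, and that of the downstream Stat4 start is chr1:52007990-52008289 on the plus strand. The other sequences are chr16:91484965-91485264 for Ifnar1 and chr16:91546809-91547108 for Ifngr2, both on the plus strand.
Stat2: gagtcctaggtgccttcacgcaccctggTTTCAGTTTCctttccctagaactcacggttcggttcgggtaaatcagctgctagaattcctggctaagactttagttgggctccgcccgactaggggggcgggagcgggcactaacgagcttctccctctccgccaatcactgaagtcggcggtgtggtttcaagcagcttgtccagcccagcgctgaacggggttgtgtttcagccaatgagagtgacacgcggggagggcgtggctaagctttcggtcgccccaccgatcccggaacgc
Socs1: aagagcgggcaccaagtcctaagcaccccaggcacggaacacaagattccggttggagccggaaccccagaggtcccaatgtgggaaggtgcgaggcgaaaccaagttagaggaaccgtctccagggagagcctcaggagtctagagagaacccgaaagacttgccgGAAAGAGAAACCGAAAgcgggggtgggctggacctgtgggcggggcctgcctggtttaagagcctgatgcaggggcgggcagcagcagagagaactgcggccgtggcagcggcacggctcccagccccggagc
Stat4: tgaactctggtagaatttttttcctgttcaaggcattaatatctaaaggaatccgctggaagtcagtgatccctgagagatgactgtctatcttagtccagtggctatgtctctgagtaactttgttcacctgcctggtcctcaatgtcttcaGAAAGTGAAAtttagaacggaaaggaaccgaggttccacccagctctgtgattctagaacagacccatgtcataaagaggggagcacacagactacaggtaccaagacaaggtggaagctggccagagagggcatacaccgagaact
Ifnar1: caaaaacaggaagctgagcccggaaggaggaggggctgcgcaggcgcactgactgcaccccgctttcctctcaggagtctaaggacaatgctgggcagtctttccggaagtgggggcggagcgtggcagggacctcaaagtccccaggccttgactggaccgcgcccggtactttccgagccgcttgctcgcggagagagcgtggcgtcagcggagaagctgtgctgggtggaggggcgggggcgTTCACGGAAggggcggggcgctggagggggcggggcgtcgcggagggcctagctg
Ifngr2: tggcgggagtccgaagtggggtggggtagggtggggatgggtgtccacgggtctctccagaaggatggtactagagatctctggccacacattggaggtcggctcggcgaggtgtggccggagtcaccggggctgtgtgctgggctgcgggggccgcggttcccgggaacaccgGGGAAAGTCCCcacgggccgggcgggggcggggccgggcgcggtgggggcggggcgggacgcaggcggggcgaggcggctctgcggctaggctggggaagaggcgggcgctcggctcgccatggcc

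The ISRE core was present in 3.44% of all 32851 RefSeq mouse promoters of this length and in 3 of the 10 promoters of the 9 genes. In Stat2 the match lay on the minus strand, as TTTCAGTTTC, 222 to 213 bases before the start. Socs1 held a pair of overlapping matches, GAAAGAGAAA at 83 to 74 bases and GAAACCGAAA at 77 to 68 bases before its start. In Stat4 the match GAAAGTGAAA lay 97 to 88 bases before the downstream start, and the upstream promoter had no match to any of the 3 motifs. The GAS motif was found in 8.3% of all promoters and in those of Ifnar1 (TTCACGGAA, spanning the start) and Ifnar2 (TTCCTGGAA, 214 to 206 bases before it). The NF-kB motif, found in 20.7% of all promoters, matched in Ifngr2, as GGGAAAGTCC and, overlapping it on the other strand, GGAAAGTCCC. None of the 3 motifs matched in the promoters of Ifngr1, Jak2 and Stat3. Such matches describe the letters in these windows and do not show that a factor was bound.

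Library totals were 23037820 to 25089320 counts in the KAT8-inhibitor libraries and 18441352 to 24429778 counts in the DMSO libraries. Levels are given as TMM-scaled CPM, that is, counts relative to library size, with the SD over 3 libraries per group, and 3 counts in a library correspond to 0.1156 to 0.1657 CPM. Genes were tested with the quasi-likelihood method of edgeR, p-values were adjusted over all 13815 tested genes by Benjamini-Hochberg, and a gene was called at an adjusted p under 0.05. Kat8 mRNA itself was higher with the inhibitor, at 20.8 ± 0.351 CPM against 16.1 ± 0.727 CPM with DMSO (log2 fold change 0.37, SE 0.069, adjusted p 0.00244), and a level of mRNA does not check the action of an enzyme inhibitor. Of the macrophage markers, Lyz2 was the most abundant, at 4190 ± 37.1 CPM with the inhibitor and 8596 ± 632 CPM with DMSO. Nothing in the labels shows the replicates to be separate mice or cultures, so the p-values measure a spread between libraries that may be technical.

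With the inhibitor, 7 of the 9 genes fell, Stat4 rose and Ifngr1 did not pass the test. Among all tested genes, 26.5% were called lower and 24.9% higher. The largest of the falls was that of Stat2, at 1.65-fold, and the falls of Ifnar1, Ifngr2, Jak2 and Socs1 lay between 1.34-fold and 1.46-fold. Ifnar2 and Stat3 fell by less, 1.14-fold and 1.17-fold. The median log2 fold change over the 9 genes was -0.42, against 0.01 over all tested genes. In 8 of the 9 genes the libraries of the groups did not overlap, 7 of them lower and 1 higher with the inhibitor, where 60.6% of all tested genes were separated, 30.3% in each direction. Scaled by library totals alone, which moved the median of all genes by 0.11 on the log2 scale, Ifnar2 and Stat3 were no longer called and the other 5 falls and the rise were.

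**Figure D1:**
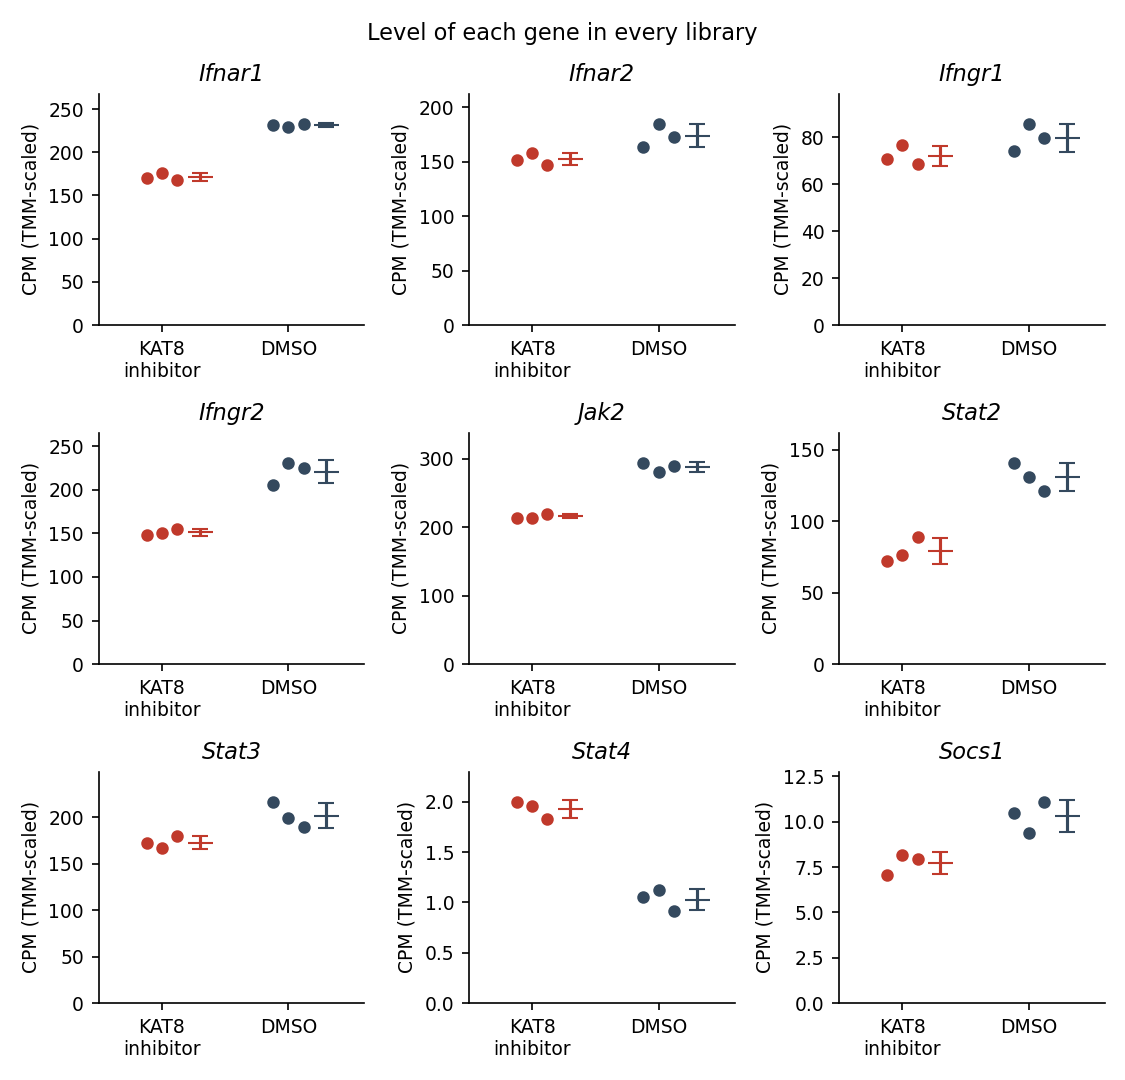
Level of each of the 9 genes, in TMM-scaled CPM on axes that start at 0, in the 3 KAT8-inhibitor libraries (red, left) and the 3 DMSO libraries (blue, right), with replicates 1 to 3 in order and the mean with SD bars beside them. The groups are apart in every panel except that of Ifngr1, and Stat4 is the gene whose inhibitor libraries lie above.

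The type I interferon receptor chains were both lower with the inhibitor. Ifnar1 (ENSMUSG00000022967, chr16:91485238-91507441, plus strand, build GRCm38) had 170, 176 and 168 CPM in the KAT8-inhibitor libraries, against 232, 229 and 233 CPM in the DMSO libraries. The libraries of each group lay close together and the groups were far apart. Its mean was 171 ± 3.99 CPM with the inhibitor and 231 ± 1.87 CPM with DMSO, and the log2 fold change was -0.43 (SE 0.039, adjusted p 4.38e-05). Ifnar2 (ENSMUSG00000022971, chr16:91372783-91405589, plus strand), the chain that exists in membrane-bound and soluble forms, had 152, 158 and 147 CPM with the inhibitor and 164, 185 and 173 CPM with DMSO. All 3 inhibitor libraries were below the lowest DMSO library, by a narrow margin for replicate 2. The log2 fold change of Ifnar2 was -0.19 (SE 0.054, adjusted p 0.0181). Without KAT8-inhibitor replicate 1 its adjusted p was 0.0534, and without KAT8-inhibitor replicate 3 it was 0.0680. Exons of Ifnar2 share 315 bases (9.46%) with Gm21970, a gene on the same strand, and reads there could be counted for either.

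Of the interferon-gamma receptor chains, Ifngr2 fell and Ifngr1 did not pass the test. Ifngr2 (ENSMUSG00000022965, chr16:91547072-91565623, plus strand), the chain that brings JAK2 to the receptor, had 148, 150 and 155 CPM with the inhibitor against 206, 231 and 225 CPM with DMSO. No inhibitor library came near the DMSO range, and the log2 fold change was -0.55 (SE 0.052, adjusted p 6.04e-05). Ifngr1 (ENSMUSG00000020009, chr10:19591949-19610229, plus strand), the main ligand-binding chain, had 70.6, 76.9 and 68.5 CPM with the inhibitor and 74.0, 85.8 and 79.7 CPM with DMSO. Here the groups overlapped, since inhibitor replicate 2 was above DMSO replicate 1. Its log2 fold change of -0.15 (SE 0.068, adjusted p 0.0985) had a 95% interval of -0.31 to 0.01, which does not show that the level was the same. Without DMSO replicate 1, the lowest of its group, Ifngr1 was called lower, with an adjusted p of 0.0320.

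Because both chains of a receptor are counted in the same library, their ratio needs no scaling between libraries. The ratio of Ifnar1 to Ifnar2 counts was 1.12, 1.11 and 1.14 with the inhibitor, against 1.41, 1.24 and 1.35 with DMSO. That of Ifngr2 to Ifngr1 counts was 2.09, 1.95 and 2.26 with the inhibitor, against 2.78, 2.69 and 2.82 with DMSO. In each receptor the ratio was lower in all 3 inhibitor libraries than in any DMSO library, with a log2 ratio of the means of -0.25 for the type I and -0.40 for the interferon-gamma receptor. The third ratio formed, Stat2 to Stat3, was 0.417, 0.459 and 0.497 with the inhibitor and 0.650, 0.661 and 0.638 with DMSO (log2 of the ratio of means -0.50). The two-sided exact permutation p was 0.1 for each of the 3 ratios, before and after adjustment over them, which is the smallest that 3 libraries against 3 can give. These ratios were formed after the values of the genes had been seen.

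Jak2 (ENSMUSG00000024789, chr19:29251828-29313080, plus strand), the kinase that signals from IFNGR2 and from the receptors of GM-CSF and erythropoietin, had 214, 214 and 219 CPM in the KAT8-inhibitor libraries, against 294, 280 and 289 CPM in the DMSO libraries. The spread within each group was small beside the gap between them. The log2 fold change was -0.42 (SE 0.039, adjusted p 5.59e-05). The other JAK kinases, Jak1, Tyk2 and Jak3, were not called. Jak1, which serves both interferon receptors, averaged 348 ± 4.63 CPM with the inhibitor and 352 ± 15.2 CPM with DMSO (log2 fold change -0.01, 95% interval -0.11 to 0.09, adjusted p 0.816). Tyk2, the kinase held by IFNAR1, averaged 89.1 ± 3.38 CPM with the inhibitor and 89.3 ± 2.37 CPM with DMSO (adjusted p 0.957). Jak3, the kinase of the common gamma chain receptors, averaged 14.9 ± 0.737 CPM with the inhibitor and 12.9 ± 0.0901 CPM with DMSO, with an adjusted p of 0.0554.

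Stat2 (ENSMUSG00000040033, chr10:128270559-128292849, plus strand), the STAT that works in ISGF3, had 71.9, 76.6 and 89.3 CPM with the inhibitor, against 141, 131 and 121 CPM with DMSO. Every inhibitor library was well below every DMSO library, with inhibitor replicate 3 the highest of its group. The log2 fold change was -0.73 (SE 0.088, adjusted p 0.000241), and over the 14 other settings tried it ranged from -0.82 to -0.62. Irf9, another gene of ISGF3, averaged 64.6 ± 0.404 CPM with the inhibitor and 61.7 ± 3.26 CPM with DMSO (log2 fold change 0.07, 95% interval -0.05 to 0.19, adjusted p 0.321). Of these genes of ISGF3, then, Stat2 was lower with the inhibitor and Irf9 was not called.

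Stat3 (ENSMUSG00000004040, chr11:100885098-100939540, minus strand), which carries the signals of IL-6 and IL-10, had 172, 167 and 180 CPM with the inhibitor, against 217, 199 and 190 CPM with DMSO. The groups did not overlap, although inhibitor replicate 3 and DMSO replicate 3 were close. Its log2 fold change was -0.22 (SE 0.058, adjusted p 0.0122). The last 72 bases of Stat3 exons (0.756%) overlap Stat5a on the other strand, and whether strand was used in counting is not given in the sources used here. Stat5a and Stat5b, its neighbours, which answer GM-CSF, were not called, at log2 fold changes of 0.03 (adjusted p 0.616) and 0.07 (adjusted p 0.271).

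Stat4 was the gene that rose. STAT4, best known for carrying the IL-12 signal in T and NK cells, was sparsely counted, with 52, 49 and 44 counts in the KAT8-inhibitor libraries and 19, 26 and 21 counts in the DMSO libraries. In CPM, Stat4 (ENSMUSG00000062939, chr1:51987148-52107189, plus strand) had 2.00, 1.96 and 1.83 with the inhibitor, against 1.05, 1.12 and 0.916 with DMSO. Each inhibitor library exceeded each DMSO library, and the level was 1.87-fold higher (log2 fold change 0.90, SE 0.19, adjusted p 0.00490). Markers of T and NK cells summed to 0.120 to 0.501 CPM with the inhibitor and 0.129 to 0.218 CPM with DMSO. None of these 9 markers had enough counts to be tested, and Cd3d, Nkg7, Ncr1 and Prf1 were at 0 in all 6 libraries. Of the exon bases of Stat4, 26.7% (1033 bases) overlap Gm28177, a transcript on the same strand. Gm28177 was far more abundant than Stat4 and went the other way, at 21.0 ± 4.25 CPM with the inhibitor and 32.5 ± 6.42 CPM with DMSO (log2 fold change -0.63, adjusted p 0.0187). How reads in the shared bases were assigned is not known, so the level of Stat4 is uncertain.

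Stat6, the STAT of IL-4 and IL-13 signalling, also rose, to 261 ± 5.84 CPM with the inhibitor against 179 ± 8.48 CPM with DMSO (log2 fold change 0.54, SE 0.047, adjusted p 3.76e-05). Thus, of 7 other JAK, STAT and IRF9 genes, Stat6 was higher and 6 were not called. With library totals alone, 5 of these 7 were called higher.

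**Figure D2:**
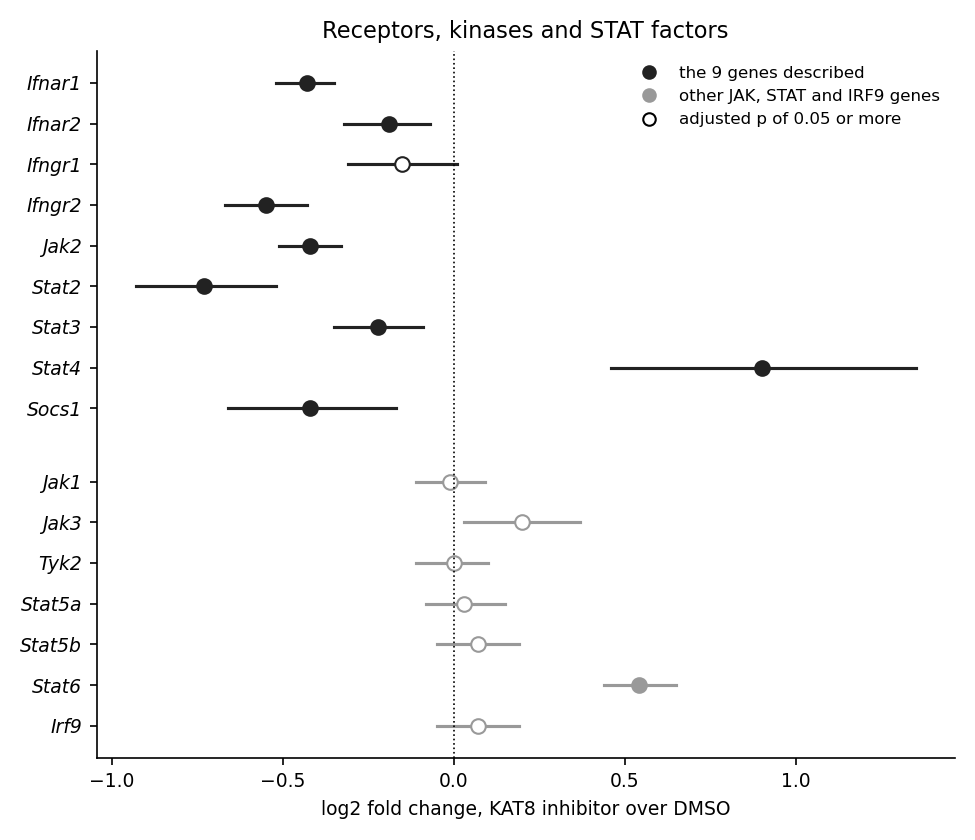
Log2 fold change of KAT8 inhibitor over DMSO for the 9 genes (black) and 7 other JAK, STAT and IRF9 genes (grey), with bars for the 95% interval of the fit and open points for an adjusted p of 0.05 or more. Points left of the dotted line are lower with the inhibitor, and Stat4 and Stat6 are the called genes to its right.

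Socs1 (ENSMUSG00000038037, chr16:10782240-10785536, minus strand), the inducible inhibitor of JAK kinases, had 7.05, 8.15 and 7.97 CPM with the inhibitor, against 10.5, 9.36 and 11.1 CPM with DMSO. The highest inhibitor library was below the lowest DMSO library. Its log2 fold change was -0.42 (SE 0.11, adjusted p 0.0119). Among 17 other SOCS genes and brakes on JAK-STAT signalling, 3 were higher and 5 lower, with a median log2 fold change of 0.01, where 24.9% of all tested genes were called higher and 26.5% lower. The share of lower genes was thus near that over all genes. Ptpn6, which encodes the phosphatase SHP-1, fell to 117 ± 9.86 CPM with the inhibitor, against 304 ± 12.7 CPM with DMSO (log2 fold change -1.37, adjusted p 1.79e-06). Socs7 and Socs4, other members of the SOCS family, rose, with log2 fold changes of 0.59 (adjusted p 3.14e-05) and 0.58 (adjusted p 0.000181). Without DMSO replicate 2, 5 of the 17 were higher and 4 lower, and with library totals alone 6 were higher and 4 lower. Over all genes, leaving out DMSO replicate 2 gave 3049 higher and 3446 lower of 14050 tested. Library totals alone gave 4888 higher and 2842 lower of 13815.

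Levels of different genes were compared per kilobase of exon. In the KAT8-inhibitor group the order was Ifnar2 (45.8 CPM per kilobase), Jak2 (42.8), Ifngr2 (40.0), Ifnar1 (28.8), Ifngr1 (25.3), Stat3 (18.2), Stat2 (13.4), Socs1 (2.66) and Stat4 (0.498), and no neighbours in this order overlapped in their libraries. In the DMSO group the level per kilobase was highest for Ifngr2 (58.6 CPM per kilobase), which overlapped Jak2 (57.2), and then came Ifnar2 (52.3), Ifnar1 (38.9) and Ifngr1 (28.0). Stat2 (22.1 CPM per kilobase) and Stat3 (21.2) also overlapped with DMSO, followed by Socs1 (3.55) and Stat4 (0.266). With the inhibitor, then, Ifnar2 stood above Ifngr2 and Stat3 above Stat2. With DMSO the libraries of Ifngr2 (54.7 to 61.3 CPM per kilobase) and Ifnar2 (49.4 to 55.5) overlapped, as did those of Stat2 and Stat3. The order in both groups depends on the length taken. With the longest transcript in place of all exons, 4 of the 9 genes kept their place in the DMSO group and 6 in the KAT8-inhibitor group.

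**Figure D3:**
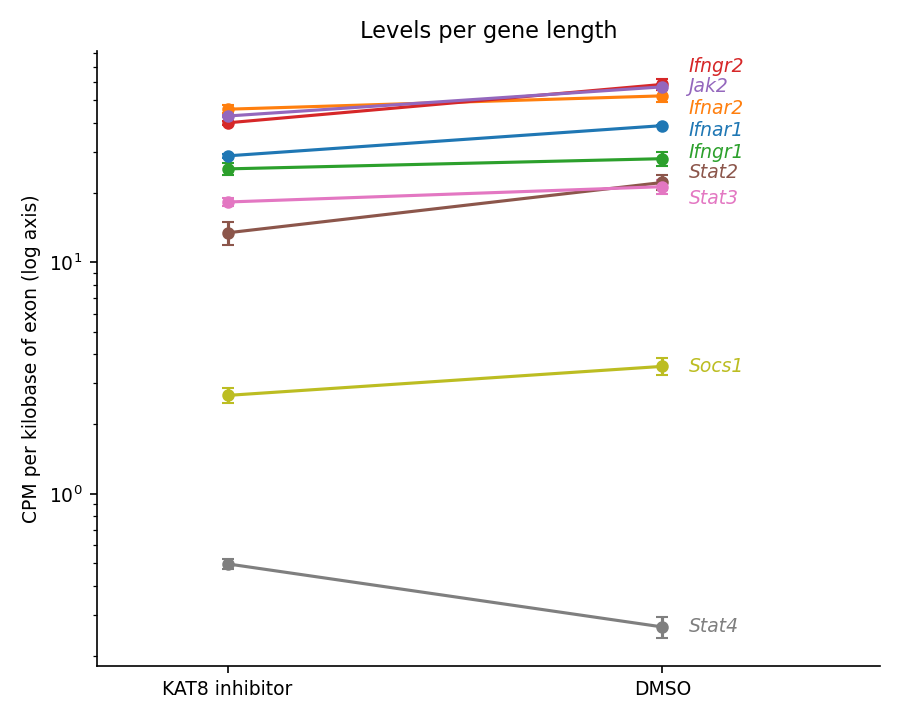
Level of each of the 9 genes in CPM per kilobase of exon, on a log axis, with the KAT8-inhibitor group left and the DMSO group right (mean and SD, n = 3 each). Lines join the means of a gene, and those of Ifnar2, Jak2 and Ifngr2 and those of Stat2 and Stat3 cross or meet.

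In the genome, 3 of the receptor genes lie side by side. Ifnar2, Ifnar1 and Ifngr2 lie with Il10rb, the second chain of the IL-10 receptor, in a cluster of class II cytokine receptor genes at chr16:91372783-91565623, which spans 193 kb. All 4 receptor genes of the cluster were lower with the inhibitor, where 26.5% of all tested genes were called lower. Ifnar2 was not called with library totals alone (adjusted p 0.175). Il10rb had 117, 117 and 115 CPM with the inhibitor, against 142, 164 and 154 CPM with DMSO, without overlap (log2 fold change -0.40, SE 0.056, adjusted p 0.000546). Exons of Il10rb share 569 bases (14.9%) with Gm21970 on the same strand, which was not called (log2 fold change -0.30, adjusted p 0.132). Neighbours within 100 kb, a window set after the data had been seen, did not all go the same way. Tmem50b, 8.88 kb beyond Ifngr2, averaged 67.7 ± 2.48 CPM with the inhibitor and 69.0 ± 1.23 CPM with DMSO (log2 fold change -0.03, adjusted p 0.643). Further along, Gart, a purine synthesis enzyme, was lower (log2 fold change -0.17, adjusted p 0.00726), Dnajc28 was higher (log2 fold change 0.56, adjusted p 0.0393), and Son, a splicing factor, was not called (adjusted p 0.944). Ifngr1, on chromosome 10, has Il22ra2, a receptor of the same class, 11.8 kb away, which was at 0 in all 6 libraries.

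**Figure D4:**
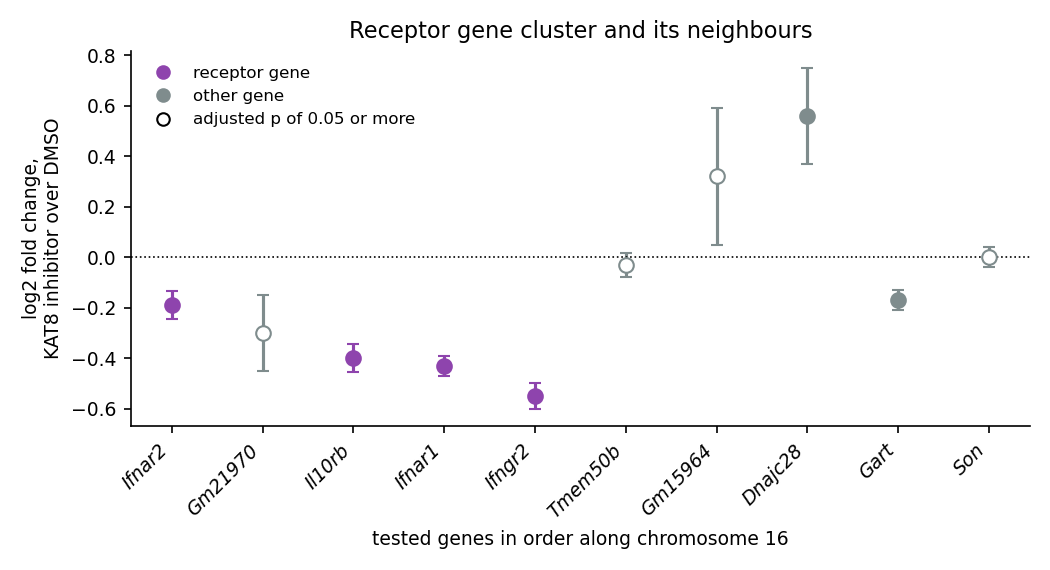
Log2 fold change of KAT8 inhibitor over DMSO, with SE bars, for the tested genes from Ifnar2 to Son in their order along chromosome 16 (not to scale of distance). The 4 receptor genes (purple) lie between -0.55 and -0.19, and open points mark an adjusted p of 0.05 or more.

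Neighbouring genes also differed in direction at the other loci. Il23a, which encodes a subunit of IL-23, lies 3.29 kb beyond Stat2 and was lower as well, at 0.785 ± 0.103 CPM with the inhibitor and 2.01 ± 0.144 CPM with DMSO (log2 fold change -1.35, adjusted p 0.000938). Cd274, the gene of PD-L1, lies 54.4 kb from Jak2 and was higher, at 691 ± 16.0 CPM with the inhibitor and 551 ± 8.27 CPM with DMSO (log2 fold change 0.33, adjusted p 0.000219). Cavin1, a caveolar coat gene 17.2 kb from Stat3, was lower (log2 fold change -1.22, adjusted p 1.56e-06). Clec16a, 37.4 kb from Socs1, was higher (log2 fold change 0.48, adjusted p 0.00301).

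The ligands of these receptors were hardly counted. Of 21 interferon genes, none had enough counts to be tested and 17 were at 0 in all 6 libraries. Ifnb1 had 0, 2 and 0 counts with the inhibitor and 2, 0 and 2 counts with DMSO, and Ifng had 0, 0 and 0 counts with the inhibitor and 0, 1 and 0 counts with DMSO. A difference in either was not detectable at this depth, and 6 h after stimulation was the only time measured.

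Receptors that share chains or STAT factors with the 9 genes were counted next. Of 8 other class II cytokine receptor genes, 6 were tested, and 4 of these were lower, against 26.5% of all tested genes. The median log2 fold change of these 6 was -0.53. Besides Il10rb, the lower ones were Il22ra1, with 5.04 ± 0.783 CPM with the inhibitor and 8.99 ± 1.62 CPM with DMSO (log2 fold change -0.84, adjusted p 0.00356), and Il20rb, with 4.77 ± 0.638 CPM with the inhibitor and 7.12 ± 0.303 CPM with DMSO (log2 fold change -0.58, adjusted p 0.00604). The fourth was F3, tissue factor, the starter of coagulation, which belongs to this family by structure (log2 fold change -0.82, adjusted p 0.000172). Ifnlr1, a chain of the interferon-lambda receptor, had a log2 fold change of -0.48 (adjusted p 0.149). Il10ra, the other IL-10 receptor chain, had 38.3, 72.9 and 33.0 CPM with the inhibitor and 37.8, 43.3 and 36.1 CPM with DMSO, so that inhibitor replicate 2 stood apart (log2 fold change 0.30, adjusted p 0.376).

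Cytokine receptors that signal through STAT3 or STAT4 were mixed, with 4 higher and 1 lower of 10 tested, against 24.9% higher and 26.5% lower over all tested genes, and a median log2 fold change of -0.05. Csf3r, the G-CSF receptor, fell to 25.0 ± 1.35 CPM with the inhibitor, against 97.7 ± 1.22 CPM with DMSO (log2 fold change -1.96, adjusted p 2.52e-07). Il21r, the IL-21 receptor, had 6.05, 5.75 and 6.47 CPM with the inhibitor and 0.718, 0.949 and 1.61 CPM with DMSO, and rose (log2 fold change 2.45, adjusted p 7.51e-05). Il12rb1, the chain shared by the receptors of IL-12 and IL-23, rose (log2 fold change 1.22, adjusted p 0.00419). It averaged 1.21 ± 0.119 CPM with the inhibitor and 0.521 ± 0.0754 CPM with DMSO. Its counts were few, at 34, 27 and 30 with the inhibitor and 11, 11 and 11 with DMSO. Il12rb2, also tested in this list, was not called (log2 fold change -0.24, adjusted p 0.536). Without DMSO replicate 1, 3 of the 10 were lower.

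Genes that STAT factors are known to induce were read next. The activity of STAT factors was not measured, and whether they set these levels was not tested. Of 23 genes induced by interferon-gamma, 18 were lower and 2 higher, where 26.5% of all tested genes were called lower and 24.9% higher. Their median log2 fold change was -0.69, against 0.01 over all tested genes. KAT8-inhibitor replicate 3 was the highest library of its group for 14 of the 23 (60.9%). Cd74, the invariant chain of MHC class II, averaged 26.3 ± 0.586 CPM with the inhibitor and 67.0 ± 6.12 CPM with DMSO (log2 fold change -1.35, adjusted p 3.50e-06). H2-Ab1, an MHC class II chain, averaged 24.5 ± 1.48 CPM with the inhibitor and 60.3 ± 5.93 CPM with DMSO (log2 fold change -1.30, adjusted p 8.69e-06). Icam1, an adhesion molecule, averaged 474 ± 8.92 CPM with the inhibitor and 850 ± 36.0 CPM with DMSO (log2 fold change -0.84, adjusted p 2.93e-06). Many of these genes also respond to other signals in macrophages, NF-kB among them, and Cd274, near Jak2, is 1 of the 2 that rose.

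Of 22 genes induced by type I interferon through ISGF3, 8 were lower, 1 was higher and 13 were not called, with a median log2 fold change of -0.28. Over all tested genes, 26.5% were called lower and 24.9% higher. Zbp1, a sensor of nucleic acids, averaged 22.5 ± 2.44 CPM with the inhibitor and 37.8 ± 1.14 CPM with DMSO (log2 fold change -0.75, adjusted p 0.000184). Bst2, which encodes tetherin, averaged 92.3 ± 4.71 CPM with the inhibitor and 125 ± 4.84 CPM with DMSO (log2 fold change -0.43, adjusted p 0.000251). Mx1, an antiviral GTPase, averaged 16.8 ± 2.30 CPM with the inhibitor and 30.4 ± 3.04 CPM with DMSO (log2 fold change -0.86, adjusted p 0.000431). KAT8-inhibitor replicate 3 was the highest library of its group for 22 of these 22 genes, while it was the highest for 33.8% of all tested genes, and it was also the highest of its group for Stat2. DMSO replicate 1 was the highest of its group for 15 of the 22. Without KAT8-inhibitor replicate 3, 12 of the 22 were lower, and without KAT8-inhibitor replicate 2, 5 were, so the count moved between settings and its lowest value is no larger a share than that over all genes. Stat2 was lower under each of these omissions.

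Of 15 genes induced through STAT3, 7 were lower, 2 higher and 6 not called, where 26.5% of all tested genes were called lower and 24.9% higher. Their median log2 fold change was -0.16. Whether STAT3 set the levels of these genes was not tested. Saa3, an acute-phase protein, averaged 431 ± 14.1 CPM with the inhibitor and 1159 ± 36.9 CPM with DMSO (log2 fold change -1.43, adjusted p 3.88e-07). Lcn2, the iron carrier lipocalin 2, averaged 14.4 ± 0.952 CPM with the inhibitor and 46.1 ± 3.27 CPM with DMSO (log2 fold change -1.68, adjusted p 1.85e-06). In the other direction, Il4ra, the IL-4 receptor chain, averaged 383 ± 14.0 CPM with the inhibitor and 215 ± 2.85 CPM with DMSO (log2 fold change 0.83, adjusted p 2.42e-06).

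**Figure D5:**
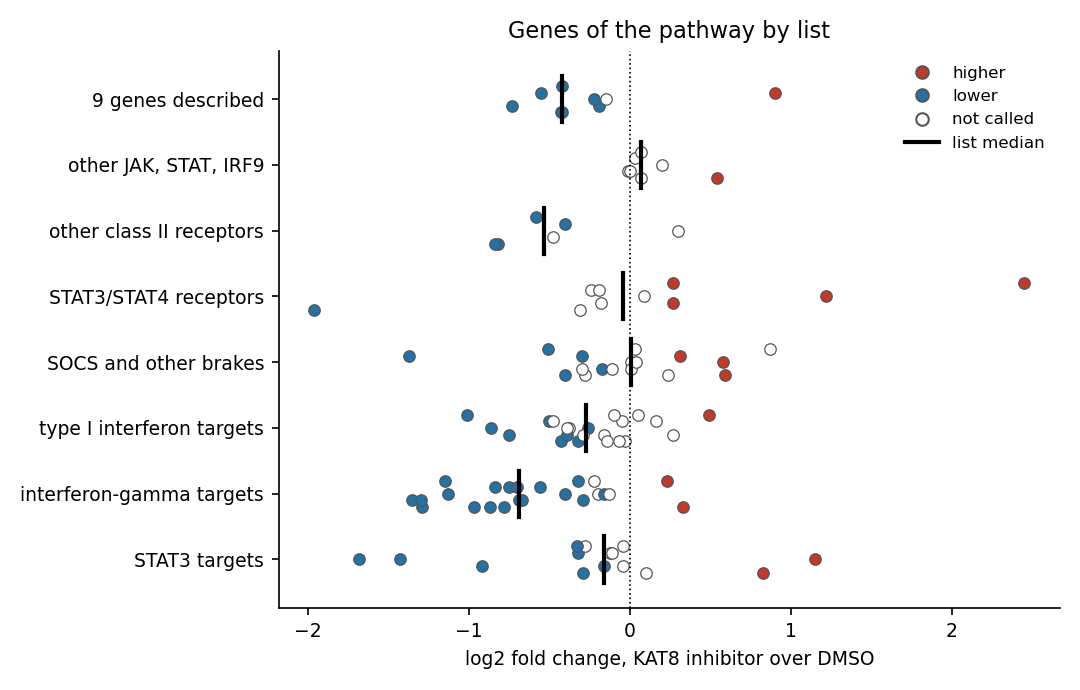
Log2 fold change of KAT8 inhibitor over DMSO for every tested gene of each list, with called genes filled (red higher, blue lower), others open, and a black bar at the list median. The medians lie between -0.69, for interferon-gamma targets, and 0.07, for the other JAK, STAT and IRF9 genes.

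Over the 6 libraries, the patterns most like those of the genes that changed most were found by the distance between centred log2(CPM + 0.5) values, among genes at a mean of 5 CPM or more. Closest to Stat2 were Irgm2, an interferon-inducible GTPase (distance 0.0864, log2 fold change -0.69), and Tent5a (distance 0.113, log2 fold change -0.66). Closest to Stat4 were Alg12, an enzyme of N-glycan synthesis (distance 0.0734, log2 fold change 0.65), and Lpin2, a phosphatidate phosphatase (distance 0.0960, log2 fold change 0.64). The log2 fold change of Stat4 itself was 0.90, and the added 0.5 CPM shrinks differences at a level as low as that of Stat4. For Ifngr2 the closest were Fibp (distance 0.0539) and Fhdc1 (distance 0.0625). With 3 libraries a group, such likeness mostly reads the difference between the groups.

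Markers of some cell types moved with the groups. The counts of called markers stand beside 26.5% of all tested genes called lower and 24.9% called higher. A single called marker, as for B cells and for mast cells and basophils, cannot be told from that share. The summed markers of mast cells and basophils, of erythroid cells and of T and NK cells overlapped between the groups. In bulk RNA, fewer cells of a type and less RNA per cell cannot be told apart. The inhibitor group had lower levels of 7 of 9 stromal markers, with a median log2 fold change of -1.13, and their summed level was 2019 to 2152 CPM with the inhibitor and 4495 to 5297 CPM with DMSO. Col1a2, the most abundant, averaged 669 ± 20.2 CPM with the inhibitor and 1701 ± 115 CPM with DMSO. Pdgfra (log2 fold change 0.08, adjusted p 0.306) and Lum (log2 fold change -0.36, adjusted p 0.0608) were not called. Of 8 macrophage markers, 6 were lower, with sums of 7562 to 7640 CPM with the inhibitor and 11861 to 13535 CPM with DMSO. Lyz2 made up much of these sums, at 4190 ± 37.1 CPM with the inhibitor and 8596 ± 632 CPM with DMSO. Csf1r (log2 fold change -0.03, adjusted p 0.616) and Cd68 (log2 fold change 0.15, adjusted p 0.143) were not called. Of 8 neutrophil markers, both that were tested were lower (sums of 1.99 to 2.85 CPM with the inhibitor and 6.41 to 7.12 CPM with DMSO), and S100a9, Ly6g, Elane, Ngp and Retnlg were at 0. Both tested dendritic cell markers of 7 were lower (sums of 10.8 to 11.6 CPM with the inhibitor and 18.2 to 20.5 CPM with DMSO), as was 1 of 3 tested B cell markers of 6 (5.81 to 7.07 CPM with the inhibitor and 8.03 to 8.78 CPM with DMSO). Of 6 mast cell and basophil markers, 1 of the 2 tested was lower (3.20 to 4.20 CPM with the inhibitor and 4.01 to 5.80 CPM with DMSO), and of 5 erythroid markers none was tested (0.116 to 0.320 CPM with the inhibitor and 0.259 to 0.497 CPM with DMSO). The most abundant of these markers were S100a8 for neutrophils (2.10 ± 0.344 CPM with the inhibitor and 5.55 ± 0.394 CPM with DMSO), Zbtb46 for dendritic cells (9.64 ± 0.471 CPM with the inhibitor and 16.8 ± 1.07 CPM with DMSO) and Ighm for B cells (4.46 ± 0.501 CPM with the inhibitor and 5.71 ± 0.122 CPM with DMSO). Gata2, for mast cells and basophils, averaged 3.19 ± 0.285 CPM with the inhibitor and 3.17 ± 0.834 CPM with DMSO, while Alas2 and Cd2, for erythroid and for T and NK cells, had too few counts to be tested. The part of these shifts in the levels of the 9 genes was not tested.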

How the data were processed

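Per the labels' protocols, mRNA was isolated and sequenced in 6 libraries of R848-stimulated mouse macrophages. The authors deposited raw read counts per Ensembl gene in 1 table, not normalized. The submitters' processing notes name build mm10, edgeR, HISAT2 and StringTie 1.3.0; their roles, the read counter, the use of strand and the handling of reads with several matches are not stated in the sources used here. Groups were taken from the sample titles.

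Counts were tested in R 4.3.3 with edgeR 4.0.16 (TMM, filterByExpr with a minimum count of 10, quasi-likelihood fit with pretreatment as the only factor), with Benjamini-Hochberg adjustment over 13815 genes and a threshold of 0.05. The SE was obtained by dividing the log2 fold change, without sign, by the root of the F statistic. Floors take 3 counts and cover counting error only, as reads that carry no molecular identifiers are not independent. Coordinates are those of GENCODE M21 (GRCm38), by Ensembl identifier, counted from 1. Exons of Kat8, Jak1, Jak3, Tyk2, Stat6, Irf9, Ptpn6, Il12rb2, Icam1, Cd74, Cd274, Il4ra, Csf1r, Pdgfra, Alas2 and Ifng also overlap other genes in part. The shared part was 40.0% of exon bases for Il12rb2 and 15.1% for Csf1r. Promoters are from RefSeq (GRCm38.p6).

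The 9 genes, the 8 pathway lists and the 8 marker lists were chosen with earlier results of these data known. Named were the 9 genes, Kat8 and every tested gene of lists of up to 8 genes. Each longer list gave the 3 called genes with the smallest p, and each cell type its most abundant marker. For the 3 genes with the largest fold changes, the 2 genes most like each were named. Neighbours, genes at 0 and the uncalled genes Csf1r, Cd68, Pdgfra, Lum and Il12rb2 were named after their values were seen. Some results are not reported here.

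No library was a copy of another: chi-square over its degrees of freedom, for the counts of each pair, was 9.12 to 14.1 within groups and 84.7 to 103 between them. In simulated data with 13815 genes at these depths, 67 genes were changed 1.5-fold, 67 were changed 2-fold and 66 were changed 4-fold. The share of changed genes recovered was 59.7% at 1.5-fold, 85.1% at 2-fold and 95.5% at 4-fold. Of 172 genes called, 12 had not been changed. In the data themselves 51.5% of tested genes were called, far more than were changed here, so these shares need not hold for this comparison. Alternatives were DESeq2 1.42.0, scaling by library totals alone or by median-of-ratios size factors, the low-count filter dropped or replaced by a mean of at least 5 CPM, correction for GC content and exon length, a replicate block, the stricter threshold of 0.01, another gene length and leaving out each library. Ratios of counts and neighbouring genes were added after the data had been seen. Protein sequences were not used here.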

Additional observations from a re-analysis of the deposited data

How the results depend on the processing

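The fall of Ifnar1, Ifngr2, Jak2 and Stat2 and the rise of Stat4 held under every alternative in which they were tested, with log2 fold changes of -0.46 to -0.33 for Ifnar1, -0.60 to -0.44 for Ifngr2, -0.44 to -0.31 for Jak2, -0.82 to -0.62 for Stat2 and 0.82 to 1.01 for Stat4. No log2 fold change of the 9 genes changed sign; those of other genes were not followed over the alternatives. With library totals alone, 4888 genes were higher and 2842 lower, against 3446 and 3667 with TMM, and the log2 fold change was -0.08 for Ifnar2 (adjusted p 0.175) and -0.11 for Stat3 (adjusted p 0.169). The same setting called higher 5 of the other JAK, STAT and IRF9 genes, 6 of the SOCS genes and other brakes (4 were lower, so that more were higher than lower) and 3 type I interferon targets. At an adjusted p under 0.01, 2257 genes were higher, 4 of the 9 genes were lower, 2 STAT3 or STAT4 receptors were higher and 5 type I interferon targets were lower; Ifnar2 (log2 fold change -0.19, adjusted p 0.0181), Stat3 (-0.22, adjusted p 0.0122) and Socs1 (-0.42, adjusted p 0.0119) were then not called. With a mean of at least 5 CPM, Stat4 was not among the genes tested, so that 0 of the 9 were higher, while 2 of the other JAK, STAT and IRF9 genes and 2 STAT3 or STAT4 receptors were higher. Removal of GC content and length trends called higher 2 of the other JAK, STAT and IRF9 genes, and DESeq2 called higher 2 type I interferon targets. With the longest transcript as length, 4 of the 9 genes kept their rank in the DMSO group and 6 in the KAT8-inhibitor group. Except where the construction shows it, the cause was not tested.

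Leaving out each library gave log2 fold changes of -0.24 to -0.15 for Ifnar2, whose adjusted p was 0.0534 without KAT8-inhibitor replicate 1 (-0.19) and 0.0680 without KAT8-inhibitor replicate 3 (-0.16), and of -0.21 to -0.10 for Ifngr1, called without DMSO replicate 1 (adjusted p 0.0320). It gave 6 to 8 lower of the 9 genes, 1 to 3 lower STAT3 or STAT4 receptors, 3 to 5 higher SOCS genes and brakes (5 higher and 4 lower without DMSO replicate 2), 1 to 2 higher and 5 to 12 lower type I interferon targets. The deviations of libraries with the same replicate number correlated at -0.034, -0.003 and 0.024. This shows no pairing by number, and with 3 libraries a group it cannot exclude a pairing of small effect. With the replicate block, 3215 genes were higher and 3510 lower, and the 9 genes kept their calls. Stat4, at 19 to 52 counts a library, is the gene whose precision depth limits most.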
